A study of Mus musculus with 15 samples.

Results

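Long intergenic noncoding RNA (lincRNA) regions were read by 16181 of the 55681 probes without control spots on a 2-colour Agilent mouse array, hybridised with RNA of the femoral mid-shaft from mice kept on the ground or flown in space. A probe was taken as a member when its annotation in the deposited scanner files was a chromosome interval with a strand letter, F or R, in place of a transcript accession. The choice used no measured value. A further 13 probes that carried an interval without a strand letter were left out. The members carried 4607 distinct region names, and regions that overlapped on the genome formed 2223 loci. All coordinates are on the mouse build mm9 (NCBI37), as the files give them. The files pair these intervals with no gene name and with no probe sequence, so members are named by probe and interval, and what lies at an interval in the annotation is not given here.

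Male C57BL/6J mice, 9 weeks old by the labels, were flown to the International Space Station (FLT) or kept on the ground (G). By the paper, 9 weeks was about the age at the operation, and tissue was taken about 4 weeks after it. In each setting the femur either received a segmental bone defect (Surgery) or was left without an operation (Sham). The labels mark the operated mice SAL; by the study's methods the gap was held by a synthetic graft with a collagen sponge soaked in saline around it. RNA came from the mid-shaft of the femur, which after surgery is the callus region of the defect. The labels name this tissue callus in the sham groups too. By the paper, a defect of this size is not expected to close untreated. No bone bridging was seen in the imaged mice of either surgery group. The arrays numbered 4 for G-Sham (replicates 1, 3, 4 and 5), 4 for FLT-Sham (4, 6, 8 and 9), 4 for G-Surgery (1, 3, 4 and 5) and 3 for FLT-Surgery (1, 3 and 5), with 1 mouse behind each array, so p-values measure the spread between these mice. Sample RNA was labelled with Cy5, and the same commercial reference, RNA pooled from 11 mouse cell lines, was labelled with Cy3 on every array. No array had its dyes swapped.

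LincRNAs are transcripts from the space between protein-coding genes that are not translated into protein. Many are spliced and carry a tail like a messenger RNA, they are usually less abundant than messenger RNAs and more restricted to single tissues, and some act in the nucleus on chromatin or on neighbouring genes while others are precursors or by-products of transcription. Many such regions were first mapped from chromatin marks of transcription, which do not give the transcribed strand.

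Most members were dark in bone, that is, not well above background in Cy5. The paper calls the quality of the RNA from these bones sub-optimal and names a freeze and thaw of the tissue as a possible reason. The commercial reference did not come from this tissue, so a dark probe is not read as a lack of transcription in bone. The part of RNA quality was not tested. Over the 15 arrays, 8610 members (53.2%) were well above background in Cy5 on none, 3349 (20.7%) on 1 or 2, 2231 (13.8%) on 3 to 11, 714 (4.41%) on 12 to 14 and 1277 (7.89%) on all 15. Of the 26695 probes for messenger RNAs (RefSeq NM_ accessions), 34.6% were above background on none and 18.6% on all 15, and of the 1472 probes for RefSeq noncoding transcripts (NR_), 10.1% were above background on all 15. The reference RNA lit more members than bone did: 3951 (24.4%) were well above background in Cy3 on all 15 arrays, against 61.6% of NM_ probes. Both RNAs lit 1161 members on all 15 arrays, and 698 members were above background in Cy3 on all 15 and in Cy5 on none.

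Ratios lay mostly on the sample side for the members that were lit on all 15 arrays in Cy5, the sample channel. Their median processed Cy5 signal over the arrays ran from 229 to 392751 with a median of 1561, and the 10 brightest held 25.9% of the summed signal. The signal depends on how well each probe binds its target, so an order of probes by signal is not an order of RNA levels. No member was saturated. The median log2 ratio of sample over reference was above 0 for 1215 of these 1277 members (95.1%), with a median of 2.95, against 55.1% and 0.21 for the NM_ probes. Both sets were chosen for light in Cy5, the numerator of the ratio, so ratios above 0 are partly built into the choice. NR_ probes chosen in this way also lay above NM_ probes. Their per-array median had a group mean between 1.53 (G-Sham) and 1.81 (FLT-Surgery). A log2 ratio sets 2 RNAs of different makeup side by side on 1 probe, and with no swapped dyes a bias of the dyes cannot be told apart from a difference between the RNAs. Of all log ratios of members, 29.2% were deposited as exactly 0, against 14.5% for NM_ probes. Many of these zeros belong to dim probes, and they were kept as deposited in the fits, fold changes and medians. A printed 0.00, also in a median over genes, can be such a value and is not read as equal levels of sample and reference.

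Within a region, light was patchy. Of the 3382 regions with 3 or more probes, 2165 had no probe on 12 or more arrays, 874 had exactly 1, 309 had 2 or more but not all, and 34 had every probe lit. Of 1101 loci with probes of both strands, both strands held a probe on 12 or more arrays in 278, the F strand alone in 229, the R strand alone in 226 and neither in 368. Pairs of members of one region and strand, both lit on all 15 arrays, had a median Pearson r of 0.587 across the arrays. That was over 381 pairs (quartiles 0.168 and 0.807). The median for pairs on opposite strands of a locus was 0.519 over 551 pairs. These pairs share arrays and normalization, and the values are descriptions. Unrelated members were not paired, so the values do not show a likeness that comes from sharing a region. The share of members lit on all 15 arrays was 6.83% for the shortest and 9.03% for the longest of 5 equal bins of members by region length, and ran from 4.85% on the X chromosome to 11.8% on chromosome 19.

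The brightest member was A_30_P01031448 (chr14:78924115-78938125, F), with a median Cy5 signal of 392800 and log2 ratios between 2.82 and 3.92 on the 15 arrays. Its 6 other probes in the same region and strand were above background on 0 to 8 arrays. A_30_P01023523 (chr6:116092274-116144199, F) followed at 306500, and 2 of its 4 sister probes were lit on 12 or more arrays. The region chr12:73838608-73862621 gave a bright probe on each strand, A_30_P01020570 on F at 253500 and A_30_P01031264 on R at 229500. A_30_P01021628 (chr11:60728207-60745369, R) stood apart by its ratio: at a signal of 203200 its log2 ratios lay between 6.42 and 9.91, although it was also above background in Cy3 on all 15 arrays, and its 4 sister probes were lit on 0 to 5 arrays. Of the 10 brightest, only A_30_P01020015 (chr17:39982023-39983277, F; signal 165200, median log2 ratio 2.54) had every probe of its region and of the opposite strand lit on all 15 arrays. It belongs to the locus chr17:39960567-39992817, where 10 of 10 F probes and 10 of 10 R probes were lit on all 15 arrays and which gave 4 of the 20 brightest members. With both strands lit alike, this locus does not show from which strand its signal came.

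A small set was seen in bone and not in the reference. On 12 or more arrays in Cy5 and on none in Cy3, 14 members were lit, and 5 of them lie within chr7:66874527-67050575. That stretch holds 13 members: 10 were lit on 12 or more arrays in Cy5 and 7 were above background in Cy3 on no array. On 12 or more arrays, 9 of 11 F probes and 1 of 2 R probes were lit, and the R probes were above background on 11 and 14 arrays. As the reference is at background for this set, its ratios rest on the detection limit of Cy3, and their order is not an order of differences. Among those 5, A_30_P01020890 (chr7:66926500-66952100, F) had a median log2 ratio of 5.78, with 6.48, 5.94, 6.11 and 4.15 in G-Sham, 4.63, 5.18, 7.47 and 6.22 in FLT-Sham, 5.44, 5.78, 4.55 and 5.73 in G-Surgery and 5.56, 6.19 and 5.81 in FLT-Surgery. All 4 groups overlapped. A_30_P01017938 (chrX:121520904-121524132, F) had a median log2 ratio of 6.12, and its 1 sister probe was also lit on all 15 arrays. Other probes were seen in the reference and hardly in bone, where the same limit holds for Cy5. A_30_P01022383 (chr8:40100925-40196350, F) had a median log2 ratio of -5.47 and was above background in bone on 1 array, FLT-Sham 8, where its ratio was 0.92. A_30_P01032159 (chr12:50490638-50508093, F) was above background in the reference on all 15 arrays and in bone on none, at a median of -4.94.

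Before the comparisons, the arrays themselves differed. The share of members well above background in Cy5 was 16.3, 20.7, 23.8 and 12.5% in G-Sham, 21.7, 22.5, 17.6 and 21.5% in FLT-Sham, 27.9, 16.8, 16.05 and 20.5% in G-Surgery and 15.3, 15.96 and 19.7% in FLT-Surgery, each in the order of replicate numbers given above. The extremes were both ground mice, G-Sham 5 and G-Surgery 1, and all groups overlapped. FLT-Sham 8 stood apart from its group by NM_ probes, of which 31.4% were above background against 44.5 to 50.9% on the other 3 arrays. As a fraction of the NM_ share, the member share ran from 0.402 on G-Sham 5 to 0.708 on FLT-Surgery 5. The arrays lay on 3 slides, each of which but 1 held arrays of all groups.

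Over groups, the share was 18.3% ± 4.98 (SD, n = 4) in G-Sham, 20.8% ± 2.17 (n = 4) in FLT-Sham, 20.3% ± 5.41 (n = 4) in G-Surgery and 16.96% ± 2.37 (n = 3) in FLT-Surgery. FLT-Sham minus G-Sham was 2.52 percentage points and FLT-Surgery minus G-Surgery -3.37, both within the spread of the arrays. The same differences for NM_ probes were 10.5 and -8.36 points, and only the second of these had no overlap between its groups. Within slides, the members gave 21.7% (1 array) for FLT-Sham against 20.7% (1 array) for G-Sham on slide 1 and 20.5% (3 arrays) against 14.4% (2 arrays) on slide 2. FLT-Surgery gave 17.8% (2 arrays) against 21.5% (3 arrays) for G-Surgery on slide 1 and 15.3% against 16.8% (1 array each) on slide 2.

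The median log2 ratio of the 1277 members lit on all 15 arrays was 2.99, 3.22, 2.82 and 2.57 in G-Sham, 2.01, 2.11, 3.28 and 2.69 in FLT-Sham, 3.11, 2.83, 2.94 and 3.10 in G-Surgery and 2.95, 3.27 and 3.43 in FLT-Surgery. FLT-Sham 4 and FLT-Sham 6 were the lowest arrays of the study and FLT-Sham 8, of the same group, was exceeded by FLT-Surgery 5 alone. The difference was -0.38 for FLT-Sham minus G-Sham, 0.22 for FLT-Surgery minus G-Surgery, 0.09 for G-Surgery minus G-Sham and 0.69 for FLT-Surgery minus FLT-Sham, with overlap in each. For NM_ probes the same differences were 0.15, -0.30, 0.20 and -0.25, and in the second and the last the groups did not overlap.

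Each comparison of groups was tested with limma on the log2 ratio over every probe that was lit in the sample channel on 3 or more of the arrays compared, and a probe was past the cut-off at a fold of at least 2 with an unadjusted p of at most 0.01, the limits of the study. In all, 4222 members entered at least 1 fit. A member that is high in 1 group only can enter through that group, so counts over the tested members describe them and support nothing further. At a Benjamini-Hochberg adjusted p of at most 0.05 limma called 0 members in any comparison, beside 0.0113% of all probes in G-Surgery against G-Sham, 0.0836% in FLT-Surgery against FLT-Sham and 0 elsewhere, so each member named below passed at the unadjusted p alone. Without the filter on dim probes, members past the cut-off numbered 163, 132, 120 and 183 in the 4 comparisons of groups in the order given below, beside 1.23, 1.28, 1.05 and 2.3% of all 55681 probes. Where a probe was not above background on any array of a group, a bound is given as "at least N-fold": the mean of the brighter group over the detection limit of the dimmer one in the normalized Cy5 channel alone, which a bias of the dyes could move. A probe is said to hold under every setting when it stayed past the cut-off in each refit that tested it, the adjusted p aside. The refit on probes above background on every array compared did not test a probe that was dark on any of those arrays. Another detection flag was applied to the shares alone, and results with arrays left out are given apart. In pieces of bone, fewer cells of a type and less RNA per cell cannot be told apart.

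The first question was what flight changed in unoperated bone. FLT-Sham against G-Sham put 60 of 3539 tested members past the cut-off (1.7%), 38 higher (1.07%) and 22 lower (0.622%), in 58 loci, beside 2.0% of all 19737 probes tested, 1.79% higher and 0.208% lower. Of the members 276 had an unadjusted p of at most 0.05, which is 7.8% beside 9.57% of all probes. The groups did not overlap for 117 members (3.31%, beside 4.6% of all probes), 47 of them past the cut-off (1.33%, beside 1.56%). A group without any array above background was part of 37 of the 60 calls, and 8 were lit on every array of both groups. The median log2 fold change was -0.20 over the members tested and 0.24 over all probes tested.

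First by fitted size among the probes whose groups did not overlap was A_30_P01019178 (chr12:74140325-74142695, F). It was read against a group at background, so this place is not an order of differences. Its log2 ratios were -2.32, -2.45, -2.27 and -1.74 in G-Sham and 1.10, 1.02, 5.52 and 0.59 in FLT-Sham. No G-Sham array and all 4 FLT-Sham arrays were above background, and FLT-Sham 8 was far above the rest of its group. The log2 fold change was 4.25 (SE 1.01, limma adjusted p = 0.41; at least 5.08-fold) and 3.10 to 4.74 with each array left out. In both surgery groups the probe was above background on no array.

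A_30_P01020571 (chr2:48826955-48827592, F) had log2 ratios of -4.05, -3.28, -1.87 and -2.31 in G-Sham and 1.03, 0.71, -0.51 and -0.73 in FLT-Sham. All 4 flight mice lay above all 4 ground mice, by a log2 fold change of 3.004 (SE 0.60, limma adjusted p = 0.35; at least 4.32-fold). A_30_P01026339 (chr17:6830756-6832322, R) read -3.94, -3.99, -2.41 and -3.17 in G-Sham and 0.28, 0.14, -1.20 and -1.14 in FLT-Sham. Its log2 fold change of 2.90 (SE 0.52; at least 3.30-fold) had the smallest adjusted p of any member in this comparison, 0.30 by limma. The other named probes that were higher, A_30_P01025615, A_30_P01031709, A_30_P01024279 and A_30_P01019616, had log2 fold changes of 2.81, 2.63, 2.47 and 2.34, and each was above background on 3 FLT-Sham arrays and on no other array of the study. The bounds for these 4 were at least 2.16-, 3.34-, 1.95- and 1.90-fold, so their fitted folds have no order.

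Region chr12:85210777-85262127 carried a called probe in each direction, one per strand. A_30_P01033196 on the R strand read -3.20, -2.38, -2.04 and -1.73 in G-Sham and 0.86, 0.82, 1.82 and -0.85 in FLT-Sham, a log2 fold change of 2.998 (SE 0.59, limma adjusted p = 0.35; at least 3.84-fold). A_30_P01033464 on the F strand read 2.47, 1.73, 1.45 and 0.81 in G-Sham and 0.05, -0.72, -1.56 and -0.92 in FLT-Sham, a log2 fold change of -2.40 (SE 0.47, limma adjusted p = 0.35; at least 1.56-fold). Neither pair of groups overlapped, so within one interval the R probe was the higher in flight and the F probe the lower. In G-Surgery the F probe read 3.30, 2.05, 1.99 and 2.36, above every FLT-Sham array. This pair was picked out after its values were seen.

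One bright probe was lower under every setting. A_30_P01017978 (chr9:31839533-31840971, R; median Cy5 signal 6217) was lit on all 15 arrays and read 5.15, 5.56, 5.28 and 4.37 in G-Sham and 3.22, 2.88, 3.54 and 3.61 in FLT-Sham. The groups did not overlap, and the log2 fold change of -1.78 (SE 0.36, limma adjusted p = 0.35) stayed between -2.02 and -1.62 with each array left out. It was -2.34 on slide 1 and -1.42 on slide 2, and it held under every setting, alone among the named probes of this comparison. G-Surgery, at 4.70, 3.91, 5.22 and 3.69, and FLT-Surgery, at 4.68, 4.19 and 5.12, overlapped with each other and with G-Sham. FLT-Surgery was higher than FLT-Sham by 1.35 (SE 0.39, limma adjusted p = 0.15). Of its 2 sister probes 1 was lit on 12 or more arrays, and its 10 probes on the opposite strand were lit on 0 or 1 array.

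Other members lower in flown shams included A_30_P01033389 (chr4:109071198-109078714, F), at 2.64, 2.60, 2.47 and 1.02 in G-Sham and -1.44, 0.65, 0.31 and 0.13 in FLT-Sham. Its log2 fold change was -2.27 (SE 0.56, limma adjusted p = 0.41). The same probe was higher in FLT-Surgery than in FLT-Sham by 2.81 (SE 0.64, limma adjusted p = 0.14), with 1.68, 3.29 and 3.20 in FLT-Surgery; both values rest on the same 4 FLT-Sham arrays. A_30_P01031070, A_30_P01028316, A_30_P01027177 and A_30_P01022193 had log2 fold changes of -2.02, -1.78, -1.70 and -1.58. No FLT-Sham array was above background for A_30_P01031070 (at least 2.51-fold), A_30_P01027177 (at least 2.88-fold) and A_30_P01022193 (at least 2.73-fold).

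The call counts of this comparison depended on single arrays. Without FLT-Sham 8 there were 277 calls, 171 higher and 106 lower, at a background of 10.7% of all probes, and the smallest limma adjusted p of a member was 0.011. Without G-Sham 5 there were 115, 50 higher and 65 lower, beside 3.11% of all probes. Without G-Sham 1 or G-Sham 4 there were 34 and 35, beside 1.23 and 1.38%, and without FLT-Sham 4, FLT-Sham 6 or FLT-Sham 9 there were 26, 17 and 26, beside 0.627, 0.533 and 0.799%. Without G-Sham 3 there were 45, 40 higher and 5 lower, beside 2.12%. The count of members thus moved with that of all probes, except that without G-Sham 3 it fell while theirs rose from 394 to 407. The split of 38 higher and 22 lower turned with the scaling, to 18 and 30 after a further loess within each array, 0 and 3 after normexp and loess, and 30 and 50 in Cy5 alone. Over all probes, 353 of 394 calls were higher, and 161 of 247, 10 of 33 and 338 of 450 under these settings. That further loess moved the median log2 fold change of all tested probes from 0.24 to -0.12 in this comparison and from -0.20 to 0.29 in the next.

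Cell type markers were read beside these groups. Of 6 erythroid genes, 4 were tested, with a median log2 fold change of 2.48 and none past the cut-off. Their median log2 ratio per array was 2.16 to 5.11 in G-Sham and 7.04, 7.34, 3.99 and 7.16 in FLT-Sham, where FLT-Sham 8 was the low one, and Epb42 was above background on no array. Of the 5 adipocyte genes 4 were tested and 1 was past the cut-off, Plin1, a coat protein of fat droplets (log2 fold change 2.500, SE 0.55, limma adjusted p = 0.39; at least 2.34-fold); Lep was lit on no array. Skeletal muscle genes were lit throughout, 8 of 10 on all 15 arrays, with none of 10 past the cut-off. Of 12 osteoblast and osteocyte genes 3 were lit on all 15 arrays, while Dmp1, Phex, Sost and Sp7, which define osteocytes and committed osteoblasts, were lit on none. Ibsp, a bone matrix protein, was the 1 of 8 tested past the cut-off, at 2.35 (SE 0.47, limma adjusted p = 0.35). The part of any of these cell types in the member values was not tested.

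The second question was what flight changed in the callus region after surgery. FLT-Surgery against G-Surgery put 53 of 3205 tested members past the cut-off (1.65%), 22 higher (0.686%) and 31 lower (0.967%), each in a locus of its own, beside 3.14% of all 16542 probes tested, 1.05% higher and 2.09% lower. At an unadjusted p of at most 0.05 there were 331 members (10.3%, beside 16.4% of all probes). The groups did not overlap for 328 members (10.2%, beside 13.6% of all probes), 52 of them past the cut-off (1.62%, beside 3.04%). Of the 53 calls 20 were lit on every array of both groups and 23 had a group with none. The median log2 fold change was 0.02 over the members and -0.20 over all probes.

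A_30_P01032409 (chr4:136856064-136877219, F) was named in 3 comparisons. It read -0.58, -0.85, 0.48 and 0.61 in G-Sham, 1.87, 2.39, -0.09 and 2.68 in FLT-Sham, 3.55, 3.28, 2.80 and 2.10 in G-Surgery and 1.14, -1.11 and -0.22 in FLT-Surgery. It was above background on 3 arrays each of FLT-Sham and G-Surgery and on none of the other 2 groups. Surgery on the ground thus came with a higher level, by a log2 fold change of 3.02 (SE 0.45, limma adjusted p = 0.14; at least 2.90-fold), and FLT-Surgery was lower than G-Surgery (log2 fold change -2.999, SE 0.58, limma adjusted p = 0.21; at least 2.33-fold). The interaction, the flight difference after surgery minus that in shams, was -4.80 (SE 0.94, limma adjusted p = 0.16). These 3 values share arrays. All 3 stayed past the cut-off with each array left out, but none held under every setting. Its 4 sister probes were above background on 0 or 1 array, and its 13 opposite-strand probes on 0 to 15.

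A_30_P01028474 (chr7:99882675-99883730, R) read 1.32, 1.51, 1.28 and 1.06 in G-Surgery and 0.40, -1.76 and -1.81 in FLT-Surgery. The 4 ground mice lay close together and the flight mice lay below them, by a log2 fold change of -2.35 (SE 0.55, limma adjusted p = 0.26). That fold held neither under every setting nor with each array left out. The interaction of this probe, -4.26 (SE 0.92, limma adjusted p = 0.17), held under every setting that tested it. A_30_P01023185 (chr14:99734507-99734889, R) read 2.31, 1.79, 2.10 and 2.47 in G-Surgery and -0.90, 0.15 and 0.44 in FLT-Surgery, a log2 fold change of -2.27 (SE 0.38, limma adjusted p = 0.21; at least 1.59-fold). In G-Sham the same probe read 0.93, 0.13, 1.64 and 6.88, with replicate 5 far above the rest. The other named probes that were lower, A_30_P01022537, A_30_P01025909, A_30_P01030183, A_30_P01017714 and A_30_P01022801, had log2 fold changes between -2.71 and -2.08. No FLT-Surgery array was above background for the first 4, with bounds of at least 4.29-, 3.04-, 2.73- and 3.69-fold in that order.

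Among members that were higher, A_30_P01018083 (chr1:183951156-183986156, F) read 1.56, 2.43, 1.86 and 1.001 in G-Surgery and 6.12, 4.08 and 3.16 in FLT-Surgery. The log2 fold change was 2.74 (SE 0.70, limma adjusted p = 0.28), and FLT-Surgery 1 carried the highest value. A_30_P01028019 (chr3:36280098-36347798, F) read 2.33, 0.81, 1.69 and 2.46 in G-Surgery and 4.22, 4.09 and 3.93 in FLT-Surgery. The 3 flight mice lay close together and above all ground mice of the comparison, by 2.25 on the log2 scale (SE 0.43, limma adjusted p = 0.21). A_30_P01019456, A_30_P01026202 and A_30_P01025695 had log2 fold changes of 2.16, 1.71 and 1.64, the last against a group at background (at least 1.95-fold).

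The 3 remaining named probes were brighter and were lit on all 15 arrays. A_30_P01018197 (chr6:142915873-142938323, F) read 2.05, 1.73, 1.04 and 1.80 in G-Surgery and 3.29, 2.79 and 2.67 in FLT-Surgery, a log2 fold change of 1.26 (SE 0.33, limma adjusted p = 0.28). It was lower in G-Surgery than in G-Sham by 1.17 on the log2 scale (fold change -1.17, SE 0.28, limma adjusted p = 0.28), and the G-Surgery arrays serve both values. A_30_P01027726 (chr8:26212577-26218527, F) and A_30_P01032787 (chr6:121040274-121040713, R) were higher by 1.28 and 1.21. Of the 16 named probes of this comparison 0 held under every setting, and 3 stayed past the cut-off with each array left out.

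Single arrays moved this count too. Without FLT-Surgery 1 there were 137 calls, 39 higher and 98 lower, at a background of 12.7% of all probes, with a smallest limma adjusted p of a member of 0.010. Without G-Surgery 1 there were 29 and without G-Surgery 4 there were 23, beside 2.36 and 1.63% of all probes. The split moved as well: without FLT-Surgery 5 there were 64 (7 higher, 57 lower), beside 2.24%. Without G-Surgery 5 there were 71 (42 higher, 29 lower), beside 4.63%. The direction of the calls turned with the scaling, from 22 higher and 31 lower to 310 and 14 after a further loess, 5 and 3 after normexp and loess, and 91 and 10 in Cy5 alone. The calls over all probes turned as well, from 173 of 519 higher to 1128 of 1190, 172 of 208 and 562 of 750. Slide as a block raised the count to 110, beside 7.80% of all probes. Of the marker lists, 1 of 3 chondrocyte genes tested was past the cut-off. It was Col2a1, the main collagen of cartilage (log2 fold change -5.92, SE 1.53, limma adjusted p = 0.28). The median log2 ratio of the chondrocyte genes was 2.20 to 3.44 on the G-Surgery arrays and 0.00 to 0.37 in FLT-Surgery. They were not tested as a set. Their summed Cy5 signal was 1880 to 22000 in G-Surgery and 727 to 1090 in FLT-Surgery, and Col10a1 and Matn3 were lit on no array. Their part in the member values was not tested.

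Surgery on the ground was read from G-Surgery against G-Sham. It put 70 of 3433 tested members past the cut-off (2.04%), 47 higher (1.37%) and 23 lower (0.67%), in 66 loci, beside 2.59% of all 17674 probes tested, 2.08% higher and 0.509% lower. At an unadjusted p of at most 0.05 there were 350 members (10.2%, beside 10.9% of all probes). The groups did not overlap for 204 members (5.94%, beside 6.86% of all probes), 58 of them past the cut-off (1.69%, beside 2.17%). The median log2 fold change was 0.19 over the members and 0.14 over all probes.

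A_30_P01033149 (chr9:68349343-68411643, F) read 0.50, 2.67, 1.70 and 2.43 in G-Sham and 5.91, 5.49, 5.02 and 3.83 in G-Surgery. All 4 operated mice lay above all shams, by a log2 fold change of 3.24 (SE 0.59, limma adjusted p = 0.18). FLT-Surgery read 5.23, 2.50 and 4.35, and the interaction was not past the cut-off. A_30_P01030969 (chr1:175660642-175671878, R) was lit on all 15 arrays and read 1.32, 2.04, 0.81 and 1.81 in G-Sham and 5.30, 4.43, 3.84 and 3.14 in G-Surgery.

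The log2 fold change of A_30_P01030969 was 2.68 (SE 0.49, limma adjusted p = 0.18), with 2.06 on slide 1 and 2.86 on slide 2. In FLT-Sham it read 1.88, 2.12, 1.69 and 2.59 and in FLT-Surgery 4.42, 2.25 and 3.39, so that in flight the operated and unoperated mice overlapped. Both this probe and A_30_P01033149 held under every setting that tested them and with each array left out. A_30_P01028810 (chr13:70745633-70776516, R) was higher by 2.94 (SE 0.74, limma adjusted p = 0.29). Another probe of its strand in the same locus, A_30_P01023124, was higher by 1.97 (SE 0.36, limma adjusted p = 0.18; at least 2.06-fold) and was above background on 3 G-Surgery arrays and on no other.

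Among members that were lower, A_30_P01022054 (chrX:90997595-91009570, R) read 0.00, 1.23, 3.72 and 1.51 in G-Sham and -2.05, -3.52, -3.45 and -3.68 in G-Surgery. Every sham array and no operated array was above background, for a log2 fold change of -4.79 (SE 0.75, limma adjusted p = 0.16; at least 8.87-fold). It was -4.29 on slide 1 and -4.28 on slide 2 and held under every setting that tested it and with each array left out. FLT-Sham read 0.29, 0.15, 1.88 and -0.18 and FLT-Surgery 1.83, -2.91 and -0.37, a wide spread over 3 mice. A_30_P01028927, in the same locus and on the same strand and singled out after its value was seen, was past the cut-off in the other direction, with no G-Sham array above background. A_30_P01026654 and A_30_P01030043, also at background on every G-Surgery array, had log2 fold changes of -3.10 (at least 4.95-fold) and -3.09 (at least 2.35-fold).

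In the short interval chr7:71220656-71221612 (R), 2 of 2 tested probes were lower after surgery on the ground. A_30_P01021479 read 7.02, 4.92, 4.94 and 3.66 in G-Sham and 2.14, 2.98, 0.00 and 3.08 in G-Surgery, a log2 fold change of -3.09 (SE 0.86, limma adjusted p = 0.32; at least 6.92-fold). A_30_P01021489 read 4.78, 5.62, 5.38 and 4.93 in G-Sham and 3.35, 2.89, 2.06 and 4.55 in G-Surgery, for -1.96 (SE 0.51, limma adjusted p = 0.30). A neighbouring probe lit on all 15 arrays in Cy5 and on none in Cy3, A_30_P01028507 (chr7:71231097-71233680, R), had a log2 fold change of -2.19 (SE 0.59, limma adjusted p = 0.32). The 3 probes are on one strand and within one stretch of chromosome 7, and they share the same 8 arrays.

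Without G-Sham 1 there were 127 calls, 53 higher and 74 lower, beside 4.26% of all probes. Without G-Sham 4, G-Surgery 1 or G-Surgery 4 there were 45, 30 and 35, beside 1.96, 1.46 and 1.45%, so that this count also moved with that of all probes. The split of 47 higher and 23 lower became 24 and 42 after a further loess, 3 and 16 after normexp and loess, and 28 and 59 in Cy5 alone. Over all probes 368 of 458 calls were higher, and 232 of 407, 72 of 180 and 339 of 585 under these settings. Col2a1, 1 of 4 chondrocyte genes tested, was past the cut-off and higher by 6.03 (SE 1.18, limma adjusted p = 0.20, at least 31.3-fold). The median log2 ratio of the chondrocyte genes was -0.01 to 0.55 in G-Sham against 2.20 to 3.44 in G-Surgery. Their summed Cy5 signal was 631 to 989 against 1880 to 22000, and they were not tested as a set. Of 4 erythroid genes tested 1 was past the cut-off, Hbb-b1, at -2.61 (SE 0.78, limma adjusted p = 0.35; at least 2.23-fold). Ibsp was higher by 3.098 (SE 0.75, limma adjusted p = 0.28), 1 of 8 osteoblast and osteocyte genes tested. Their part in the member values was not tested.

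Surgery in flight was read from FLT-Surgery against FLT-Sham. In the main fit this comparison held the most calls of the 4 comparisons of groups, but not after a further loess or with slide as a block. Of 3343 tested members 98 were past the cut-off (2.93%), 26 higher and 72 lower, in 80 loci, beside 6.65% of all 19131 probes tested. The share lower was 2.15%, beside 6.23% of all probes, and the share higher 0.778%, beside 0.423%. At an unadjusted p of at most 0.05 there were 519 members (15.5%, beside 24.3%). The groups did not overlap for 352 members (10.5%, beside 14.7% of all probes), 86 of them past the cut-off (2.57%, beside 5.59%). The median log2 fold change was 0.43 over the members and -0.28 over all probes.

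Several loci held more than 1 call here. In 14 loci 2 or more members were past the cut-off, and in 12 of them all in the same direction, against 2, 0 and 4 loci with 2 or more calls in the comparisons above. In 4 loci 3 members were lower. These loci were picked out after their values were seen, and probes of one locus share their source.

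On chromosome 3, the locus chr3:137734560-137752677 had 6 tested probes, all with negative log2 fold changes, and 3 past the cut-off on the F strand. A_30_P01032042 (chr3:137736327-137752677) read 6.75, 7.08, 3.09 and 5.75 in FLT-Sham and 2.24, -1.88 and -1.19 in FLT-Surgery. FLT-Sham 8 was the low sham array and FLT-Surgery 1 the high operated one, and the groups did not overlap. The log2 fold change was -5.94 (SE 1.25, limma adjusted p = 0.13), with -8.28 on slide 1 and -3.07 on slide 2. It held under every setting that tested it and with each array left out.

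Its neighbours A_30_P01024709 and A_30_P01019334 (both chr3:137742666-137744470) gave -5.88 (SE 1.28) and -5.97 (SE 1.46), with limma adjusted p of 0.14 for both. On the ground A_30_P01032042 read 1.21, 4.51, 4.67 and 5.34 in shams and 1.09, 4.37, 3.15 and 3.52 after surgery, which overlap. Its 5 probes on the opposite strand were above background on no array.

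In the locus chr10:69667411-69686275 the log2 fold change of A_30_P01032544 was -6.17 (SE 1.77, limma adjusted p = 0.15). That probe read 7.05, 7.62, 1.02 and 5.12 in FLT-Sham, 2.04, -2.51 and -2.43 in FLT-Surgery, -3.10, 3.49, 4.29 and 5.38 in G-Sham and -1.45, 1.60, 0.85 and 1.63 in G-Surgery. FLT-Sham 8 lay below FLT-Surgery 1, so these groups overlap, and G-Sham 1 lay far below its group. Of the 8 probes tested in the locus 7 had a negative log2 fold change. The loci chr3:146629425-146649125, with 8 of 8 tested probes negative, and chr11:95627874-95640824, with 9 of 11, had 3 calls each between -4.73 and -2.44. Of these calls, A_30_P01031735, A_30_P01033124 and A_30_P01024722 were at background on every FLT-Surgery array, with bounds of at least 6.77-, 7.66- and 4.04-fold. In the chromosome 11 locus the calls lay on both strands. In each of the 12 probes called in these 4 loci FLT-Sham 4 and FLT-Sham 6 held the highest values of the 15 arrays, and FLT-Sham 8 was the lowest array of its group.

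A_30_P01023384 (chr10:81680941-81704964, F) read 1.94, 2.33, -1.05 and 1.40 in FLT-Sham, all above background, and -3.82, -4.13 and -4.86 in FLT-Surgery, none above background. The log2 fold change was -5.42 (SE 0.81, limma adjusted p = 0.074, at least 13.9-fold). It held under every setting that tested it and with each array left out. A second probe of its region and strand, A_30_P01027863, gave -3.13 (SE 0.91, limma adjusted p = 0.15). A_30_P01022038 (chr6:31233512-31241062, F) was lower by 4.89 (fold change -4.89, SE 1.17, limma adjusted p = 0.14; at least 9.70-fold). The smallest adjusted p of any member, 0.071, belonged to A_30_P01019195 (chr13:34693404-34717987, R), at 0.07, 0.72, -0.70 and -0.07 in FLT-Sham and -2.83, -3.20 and -3.21 in FLT-Surgery, a log2 fold change of -3.09 (SE 0.42; at least 2.09-fold).

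Among the 26 members that were higher, the brightest named was A_30_P01032942 (chr4:94742359-94822969, F; median Cy5 signal 112700), lit on all 15 arrays. It read 4.25, 3.78, 5.26 and 4.57 in FLT-Sham and 5.63, 6.14 and 7.30 in FLT-Surgery. The groups did not overlap, and the log2 fold change was 1.89 (SE 0.54, limma adjusted p = 0.15). Its 1 sister probe was above background on no array. A_30_P01017425 (chr8:119735533-119736887, F) and A_30_P01027353 (chr12:88154776-88184372, F) were higher by 2.51 and 1.95.

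This count moved with single arrays and with the count of all probes. There were 557 calls, 296 higher and 261 lower, without FLT-Sham 8, at a background of 26.2% and with a smallest limma adjusted p of a member of 0.0012. Without FLT-Surgery 1 there were 252, beside 13.0%. Without FLT-Sham 4, FLT-Sham 6, FLT-Sham 9, FLT-Surgery 3 or FLT-Surgery 5 there were 24, 19, 32, 33 and 18, beside 2.12, 1.87, 2.40, 2.47 and 2.24%. The split of 26 higher and 72 lower became 39 and 60 after centring each array on its median, 228 and 33 after a further loess, 14 and 5 after normexp and loess, and 118 and 57 in Cy5 alone. Over all probes 81 of 1272 calls were higher, and 103 of 1184, 617 of 1193, 97 of 293 and 279 of 1306 in the same order. Slide as a block left 41 calls, beside 2.87% of all probes.

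Cell type markers were read beside this comparison too. All 4 erythroid genes tested were past the cut-off and lower, with a median log2 fold change of -5.15: Hba-a1 and Hbb-b1, which encode globin chains, Alas2, the first enzyme of heme synthesis in red cells, and Slc4a1, the red cell anion exchanger. Per array the median over the 6 erythroid genes was 7.04, 7.34, 3.99 and 7.16 in FLT-Sham and 2.28, 0.00 and 1.32 in FLT-Surgery, and their summed Cy5 signal was 22900 to 132000 against 2480 to 16800. Of 7 neutrophil genes 3 were past the cut-off and lower (Ngp, Camp and Mpo), while Elane, an elastase of the same cells, had a log2 fold change of 0.82 and was not past it. Of 4 adipocyte genes tested 3 were lower (Adipoq, Plin1 and Cfd), of 7 osteoblast and osteocyte genes 1 (Alpl, alkaline phosphatase) and of 10 skeletal muscle genes 1 (Acta1, the actin of muscle fibres, at -5.43 with SE 1.44 and limma adjusted p = 0.14). Mpo (log2 fold change -4.81, SE 0.43), Cfd (-8.34, SE 0.92) and Alpl (-4.53, SE 0.53; at least 9.09-fold) had a limma adjusted p of 0.040 each. Whether RNA of such cells accounts for the probes of these loci was not tested.

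The difference of the flight differences, the interaction, was fitted over all 15 arrays. It put 74 of 4222 tested members past the cut-off (1.75%), 12 higher (0.284%) and 62 lower (1.47%), beside 5.33% of all 21773 probes, 0.358% higher and 4.97% lower. The smallest adjusted p of a member was that of A_30_P01029414 (chr14:106562325-106660675, F), with an interaction of -3.35 (SE 0.54, limma adjusted p = 0.090). It read -2.74, -3.52, -2.91 and -2.59 in G-Sham, -0.76, -0.54, -1.08 and -1.05 in FLT-Sham, -0.38, -1.93, -1.09 and -1.20 in G-Surgery and -2.83, -2.61 and -1.81 in FLT-Surgery. FLT-Sham and G-Surgery overlapped and lay above the other groups, except that G-Surgery 3 lay just below FLT-Surgery 5, and the probe was above background on 3 arrays in all.

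A_30_P01019310 (chr7:66562613-66565106, F) gave -3.77 (SE 0.73, limma adjusted p = 0.16) and was above background on 2 arrays each of FLT-Sham and G-Surgery. Without FLT-Sham 8 there were 389 interaction calls, at a background of 17.5%, and without FLT-Surgery 1 there were 147, beside 10.3%. Without FLT-Sham 4, FLT-Sham 6, G-Surgery 3, G-Surgery 4, FLT-Surgery 3 or FLT-Surgery 5 there were 32, 31, 43, 49, 46 and 39, beside 2.92, 2.84, 2.97, 3.89, 3.27 and 2.52% of all probes. The split of 12 higher and 62 lower became 189 and 16 after a further loess, 16 and 7 after normexp and loess, and 93 and 42 in Cy5 alone. Over all probes 78 of 1160 were higher, and 664 of 897, 173 of 321 and 337 of 1098 under these settings.

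Noncoding genes with a name of their own were read beside the regions. Of 39 looked for, 27 matched a probe and 6 were lit on all 15 arrays: Malat1 and Neat1, nuclear RNAs of speckles and paraspeckles, Pvt1, the neighbour of Myc, Airn and Peg13, expressed from imprinted loci, and Norad, which binds Pumilio proteins. Jpx, Gnasas1 and Fendrr were lit on none. Past the cut-off were 0 of 18 tested in FLT-Sham against G-Sham, with a median log2 fold change of 0.89, 1 of 14 in FLT-Surgery against G-Surgery, 1 of 16 in G-Surgery against G-Sham and 1 of 17 in FLT-Surgery against FLT-Sham. Tug1, a broadly expressed lincRNA, was the one in both comparisons that hold G-Surgery. It was higher in G-Surgery than in G-Sham by 2.48 (SE 0.61, limma adjusted p = 0.29) and lower in FLT-Surgery than in G-Surgery, at -2.12 (SE 0.56, limma adjusted p = 0.28); the G-Surgery arrays serve both. Gm16062 was lower in FLT-Surgery than in FLT-Sham, at -4.18 (SE 0.96, limma adjusted p = 0.14; at least 3.99-fold).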

How the data were processed

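Total RNA was hybridised to 15 Agilent 2-colour arrays, Cy5 for the sample and Cy3 for the reference. The authors deposited scanner output of Agilent Feature Extraction 12.0 per the labels, with background-subtracted, dye-normalized signal intensity per channel and LogRatio, the log10 of Cy5 over Cy3. The deposited intensities already held an intensity-dependent dye correction (Spearman 0.894 to 0.992 over the arrays), and the series value table held the same log10 ratios to within 0.005. No column was left unmapped (0 columns).

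The log ratio was turned to log2, spots marked as outliers were left out and spots of a probe averaged. Groups were compared with limma 3.58.1 in R 4.3.3 (lmFit, eBayes) with the arrays of each pair of groups, and all 15 for the interaction, with Benjamini-Hochberg adjustment over all probes tested. Tables were made with Python 3.11.15, pandas 2.3.3 and numpy 2.4.6. Tested on simulated data for FLT-Sham against G-Sham, 73.5% of 200 probes given a log2 change of 2 among 19737 passed the cut-off, beside 207 unchanged probes, and 45% did at a log2 change of 1.5.

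Members, lists and tests were chosen with earlier results of these data known. Probes were named by rule: in each direction, up to 8 per flight comparison and up to 4 per surgery comparison with the largest fold past the cut-off and no overlap, the 4 smallest interaction p-values, the 10 brightest and those with extreme ratios; not all are printed. Loci with several calls were added after their values were seen. Alternatives were a further loess, normexp with an offset of 50 on median signals (the files hold no mean signals) with loess, median centring, Cy5 alone, other filters on dim probes, another detection flag, outlier spots kept, slide and replicate blocks, all 15 arrays in one fit, the series table and each array left out. Marker genes were matched through RefSeq accessions, and 28026 of 55681 probes matched a symbol.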

Additional observations from a re-analysis of the deposited data

Results flagged for a closer look

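Among 297 sets of 4 arrays looked at (named probes by group, and shares and medians by group), 21 held 1 array far from the other 3, by the 95% limit of Dixon's gap test; chance gives about 1 in 20. All values are log2 ratios, with the range of the other 3 arrays of the group.

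On G-Sham 1, A_30_P01025695 read 2.72 against 4.06 to 4.23 and A_30_P01019334 read -0.37 against 3.91 to 4.65. The same array gave -2.19 against 0.55 to 0.95 for A_30_P01027863, -1.94 against -1.31 to -1.23 for A_30_P01024722 and -1.33 against 0.46 to 0.69 for A_30_P01031870. It was also low for A_30_P01033124, at -0.90 against 1.47 to 1.75, and for A_30_P01024963, at -2.61 against -0.18 to 0.24. G-Sham 3 was high for A_30_P01028991, at -0.44 against -1.33 to -1.19, and for A_30_P01032506, at 2.77 against -0.12 to 0.15. G-Sham 5 was low for A_30_P01033389, at 1.02 against 2.47 to 2.64, and for A_30_P01027353, at 1.12 against 3.33 to 3.60, and high for A_30_P01018197, at 3.16 against 2.70 to 2.75.

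FLT-Sham 8 was the array apart in all 5 sets of FLT-Sham. It was high for A_30_P01019178, at 5.52 against 0.59 to 1.10, and for A_30_P01026654, at 2.84 against 0.88 to 1.21. It was low for A_30_P01018083, at 2.35 against 4.60 to 4.82, for A_30_P01020075, at -6.20 against -4.10 to -3.83, and for A_30_P01024278, at 2.15 against 5.13 to 5.37.

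In G-Surgery, replicate 4 was low for A_30_P01020571, at -2.71 against -1.49 to -1.25, and replicate 5 high for A_30_P01032506, at 2.24 against -0.28 to 0.00. Replicate 1 was high for A_30_P01022054, at -2.05 against -3.68 to -3.45, and low for A_30_P01024586, at -0.89 against 0.17 to 0.28.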

How the results depend on the processing

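In the order FLT-Sham against G-Sham, FLT-Surgery against G-Surgery, G-Surgery against G-Sham, FLT-Surgery against FLT-Sham and interaction, members past the cut-off numbered 60, 53, 70, 98 and 74. With limma and an adjusted p of 0.05 there were 0 in each, against 276, 331, 350, 519 and 395 when the p was left unadjusted at 0.05. The cut-off was passed by 3, 8, 19, 19 and 23 after normexp and loess, 163, 132, 120, 183 and 183 with no filter on dim probes, and 13, 34, 28, 65 and 32 among probes above background on every array compared. A further loess gave 324, 261 and 205 for FLT-Surgery against G-Surgery, FLT-Surgery against FLT-Sham and interaction, and Cy5 alone 101, 175 and 135. Slide as a block gave 31, 110, 30 and 41 for the first 4, and all 15 arrays in one fit 240 for FLT-Surgery against FLT-Sham. With single arrays left out the counts ran from 17 to 277, 23 to 137, 30 to 127, 18 to 557 and 31 to 389. The replicate numbers do not pair the mice: deviations of arrays with the same number correlated between -0.42 and 0.34, and the block left 20 calls in FLT-Surgery against G-Surgery (23 on the same arrays without it, an alternative chosen after seeing the data) and 65 in G-Surgery against G-Sham. No paired analysis was possible because the groups share fewer than 2 numbers in FLT-Sham against G-Sham and in FLT-Surgery against FLT-Sham. The difference in share above background was 6.43 points for FLT-Sham minus G-Sham with the flag for a positive and significant signal. With single arrays left out it ran from 0.562 to 4.35, -4.80 to -0.847, -0.507 to 3.85 and -5.23 to -3.02 points. The difference in median log2 ratio was -1.03, 0.99, -0.27 and 1.75 after a further loess, -0.024 (FLT-Surgery against G-Surgery) and 0.086 (FLT-Surgery against FLT-Sham) after normexp and loess, and 0.48 in Cy5 alone (FLT-Surgery against G-Surgery). With single arrays left out it ran from -0.63 to -0.21, 0.11 to 0.36, -0.02 to 0.20 and 0.52 to 0.95. Of the named probes' folds, none changed sign under the settings tried. Over all settings and arrays left out, 921 values kept their side of the cut-off and 388 lost it. The cause of these shifts was not tested. Signal over background limits what was measured, and 7.89% of members were lit on all 15 arrays.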
